A study of Mus musculus with 8 samples.

Results

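The macrophages described here are tumor barcodes with abundant complement C1q transcripts, abundant MHC class II transcripts and few transcripts of tissue-resident macrophage genes. A barcode was chosen by 4 limits on its own UMIs (unique molecular identifiers, each counting 1 captured transcript). It had passed quality limits of 500 gene UMIs, 200 genes and at most 25% mitochondrial UMIs, and it carried at least 20 hashtag UMIs. C1qa, C1qb and C1qc together reached at least 10 UMIs, Folr2, Fcrls, Ccl8 and Gas6 together stayed under 5 UMIs, and Cd74, H2-Aa, H2-Ab1 and H2-Eb1 together made up at least 1% of the gene UMIs. In the tumor, 1521 of 13262 barcodes past the quality and hashtag limits met the rule, 843 in the unirradiated and 678 in the irradiated tumor library. Over the whole series, blood included, 32121 barcodes passed those quality and hashtag limits, and in blood 4 control and 7 IR barcodes met the same gene limits.

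The cells were CD45+CD11b+Ly6Chi cells sorted from MC38 tumors, a mouse colon carcinoma line grown under the skin of the right flank. Mice were young adults of both sexes. All mice carried the floxed allele Ythdf2 fl/fl. WT mice had no Cre, and cKO mice also carried Lyz2-Cre, a Cre placed in the Lyz2 locus that acts in myeloid cells. YTHDF2 is a reader protein of m6A-modified mRNA. Tumors of the IR groups received 1 local dose of 20 Gy and were collected 3 days later, and control tumors received none. Cells of several mice were pooled for each genotype and treatment. WT cells carried the hashtag B0301 and cKO cells B0302, and both genotypes of a treatment were run in 1 library. A barcode was called WT where B0301 was at least as high as B0302, and cKO where B0302 was at least 4 times B0301. This gave 391 WT control, 380 cKO control, 255 WT IR and 369 cKO IR members. A further 126 members lay between the hashtag limits and entered no group.

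Each group was therefore 1 pool of mice in 1 library, and there is no replicate. No difference between groups was tested. Intervals given below are 95% intervals of the counts alone and say nothing about the spread between mice. Those of levels and log2 ratios treat each UMI as independent, so they also leave out the spread between cells and are too narrow for unevenly spread genes. IR and control cells were also in different libraries, so treatment and library cannot be told apart. A level is the group's summed UMIs of a gene per 1000000 gene UMIs, written CPM. A log2 ratio compares 2 such levels after adding 1 UMI scaled to depth. A gene was counted in a comparison where both groups together held at least 100 UMIs of it, and was past the limit where the log2 ratio was at least 1 in size.

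MHC class II molecules show peptides from engulfed proteins to CD4+ T cells. Their α and β chains (H2-Aa, H2-Ab1 and H2-Eb1) are held by the invariant chain Cd74 until H2-DM helps load a peptide, and the coactivator Ciita switches the genes on. C1qa, C1qb and C1qc encode the 3 chains of C1q, the recognition unit of the classical complement pathway, made largely by macrophages. Interferon-gamma induces class II genes and Cxcl9, a chemokine that draws CXCR3+ T cells. Type I interferons induce a partly shared set of antiviral genes, Isg15 and Rsad2 among them.

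The upstream sequences of 4 genes are shown as background, and no result below rests on them. Cxcl9, Cxcl10 and Isg15 were taken as interferon-induced genes that differed between groups, and H2-Eb1 as a gene of the rule. Each run is the 250 bases before the gene's start in RefSeq's GRCm38.p6, 5′ to 3′ on the gene's strand. In the first 3, capitals mark the interferon-stimulated response element core GAAANNGAA and the kappa B core GGGANTTCC. In H2-Eb1 they mark the X box core AGCAAC and the Y box core ATTGG of class II genes. Both strands were searched.
Cxcl9, chr5:92328080-92328329, minus strand: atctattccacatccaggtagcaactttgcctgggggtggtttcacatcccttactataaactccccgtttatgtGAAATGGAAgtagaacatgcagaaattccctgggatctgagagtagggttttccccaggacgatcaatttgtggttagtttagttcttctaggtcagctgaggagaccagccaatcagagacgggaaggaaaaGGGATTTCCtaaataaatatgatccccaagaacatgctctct
Cxcl10, chr5:92348890-92349139, minus strand: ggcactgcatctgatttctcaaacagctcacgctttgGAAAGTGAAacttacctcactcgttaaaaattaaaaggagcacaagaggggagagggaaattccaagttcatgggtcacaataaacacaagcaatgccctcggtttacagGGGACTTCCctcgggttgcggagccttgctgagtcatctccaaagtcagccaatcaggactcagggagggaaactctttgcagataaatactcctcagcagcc
Isg15, chr4:156200819-156201068, minus strand: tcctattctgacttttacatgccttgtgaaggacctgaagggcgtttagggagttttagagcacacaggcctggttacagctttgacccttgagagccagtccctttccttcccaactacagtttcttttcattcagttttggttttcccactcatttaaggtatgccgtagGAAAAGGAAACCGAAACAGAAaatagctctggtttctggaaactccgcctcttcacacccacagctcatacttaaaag
H2-Eb1, chr17:34305617-34305866, plus strand: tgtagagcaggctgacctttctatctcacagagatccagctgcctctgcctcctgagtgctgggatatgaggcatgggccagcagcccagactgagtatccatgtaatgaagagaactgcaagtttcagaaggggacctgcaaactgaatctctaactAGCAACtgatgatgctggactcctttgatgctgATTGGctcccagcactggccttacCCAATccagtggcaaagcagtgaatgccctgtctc
Cxcl9 and Cxcl10 each held 1 match of the interferon core and 1 of the kappa B core, the latter 42 to 34 bases before the start in Cxcl9 and 103 to 95 bases before it in Cxcl10. Isg15 held 3 overlapping matches of the interferon core between 78 and 58 bases before its start. H2-Eb1 held the X box core 92 to 87 bases before its start and 2 matches of the Y box core, the nearer one on the other strand. Among all 27025 symbols with such a window, 7.16% held the interferon core, 1.42% the kappa B core, 12.3% the X box core and 34.5% the Y box core. The interferon core was in 15 of 28 windows of the type I interferon list used below and in 13 of 19 of the interferon-gamma list, and the Y box core in 8 of 11 of the class II list. A match is a description of the letters and not evidence of binding.

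The label checks came first. Ythdf2 stood at 65.4 CPM in WT control, 584 in cKO control, 66.6 in WT IR and 426 in cKO IR members. It was thus higher in the libraries' cells labelled cKO, but these tags come from the 3′ end of the transcript and need not lie in the deleted part, so they check nothing. Lyz2, the lysozyme gene that holds the Cre, stood at 6624, 189, 4413 and 104 CPM in the same order, and its loss in both cKO groups went with the labels. At least 3 Lyz2 UMIs were found in 96.9% of WT control and 92.2% of WT IR members, but in 5.53% of cKO control and 4.34% of cKO IR members. In the members between the hashtag limits this share was 83.3% of 72 in control and 74.1% of 54 in IR, nearer to that of WT. Under a 4-fold hashtag difference lay 142 of 391 WT control and 43 of 255 WT IR members, with 95.1% and 81.4% at 3 or more Lyz2 UMIs. Lyz1, a near copy of Lyz2, was at 2.54 and 3.33 CPM in WT control and WT IR and at 217 and 120.1 in cKO control and cKO IR, and since reads may be split between the copies its level is uncertain. Of the members, 70 also carried 20 or more hashtag UMIs in the other tumor matrix, and 1510 had 500 or more gene UMIs there, with a median ratio to its UMIs in its own matrix of 0.453 (control) and 0.589 (IR). The rule takes the matrix from the hashtags, and whether the same reads entered both matrices was not tested. Leaving out the barcodes with hashtags in both matrices moved the counts of genes past the limit from 218, 513, 125 and 20 to 214, 512, 121 and 19 (IR in WT, IR in cKO, cKO in control, cKO in irradiated tumors), and summing each barcode's gene UMIs over both matrices moved them to 280, 659, 186 and 28.

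The barcodes had the features of macrophages. All 22 genes of a core macrophage list were detected in every group, with a summed level of 16718, 16283, 19971 and 19407 CPM. Adgre1 (F4/80) was at 50.7 to 73.6 CPM and Csf1r, the receptor for the macrophage growth factor, at 323 to 406. Of the dendritic cell list of 20 genes, 3 to 7 were at 0 in a group and the summed level was 217 to 342 CPM. Flt3 and Zbtb46, which define conventional dendritic cells, were at 0 in both IR groups. The list does not hold Ccl17, which is described below. Ccr7, Mgl2 and Ccl17 were higher in the members with the most class II, as given below. Stromal and carcinoma markers summed to 75.4 to 142 CPM with Lum, Krt8 and Krt18 at 0 throughout, and B cell markers to 5.86 to 26.6 with Ms4a1, Pax5 and Iglc2 at 0 throughout. T and NK cell markers summed to 575, 148, 411 and 493 CPM, of which Ccl5 alone made up 509.9, 142, 405 and 452. Monocyte markers were abundant, at 3985, 4003, 5718 and 5068 CPM, in these cells sorted for Ly6C. Neutrophil markers summed to 353, 229, 629 and 514 CPM and were thus higher in both IR groups, with Ngp and Camp, which mark neutrophil precursors, at 0 throughout. Members with 3 or more UMIs of the neutrophil markers made up 34.0%, 28.7%, 40.0% and 33.9% of the 4 groups. For T and NK cell markers this share was 25.8%, 12.4%, 23.9% and 23.6%, and for stromal or carcinoma markers 13.3%, 19.2%, 5.10% and 11.9%. For B cell markers it was at most 1.79%. The source of these transcripts was not tested.

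The genes of the rule, with the values that chose the members, are given as a description. H2-Ab1 stood at 7484, 6056, 5559 and 4655 CPM in WT control, cKO control, WT IR and cKO IR. Cd74 stood at 16555, 14949, 13487 and 11989, and C1qa at 1782, 2275, 1559.7 and 1702. The median member held 3.62%, 2.91%, 2.45% and 2.12% of its UMIs in the 4 class II genes, so the highest group was WT control and the lowest cKO IR. Near the 1% limit, 54 control and 91 IR barcodes lay between 1% and 1.25%, and 63 control and 95 IR barcodes between 0.75% and 1%. Median depth was 9317, 11932.5, 8852 and 8218 gene UMIs per member, and cKO control members were the deepest.

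Among all barcodes, members were less frequent in the irradiated tumors. They made up 14.5% (13.2 to 15.8) of WT control barcodes and 7.57% (6.70 to 8.52) of WT IR barcodes. In cKO they made up 16.6% (15.1 to 18.2) of control and 9.28% (8.40 to 10.2) of IR barcodes. The difference was -6.89 percentage points (-8.51 to -5.31) in WT and -7.36 (-9.16 to -5.61) in cKO, so neither interval reached 0. Among all C1q barcodes the difference was -16.4 points (-21.9 to -10.8) in WT and -2.76 (-7.25 to 1.74) in cKO, where the interval holds 0. A share of barcodes cannot tell fewer members from more cells of other kinds.

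Between genotypes the share also depended on the denominator. Among all barcodes of a genotype, cKO exceeded WT by 2.17 points (0.157 to 4.21) in control and 1.71 points (0.429 to 2.97) in irradiated tumors. The control difference did not hold when WT also needed a 4-fold hashtag difference, where WT control stood at 22.9% against 16.6% in cKO control. Among C1q barcodes under the resident limit, members made up 76.5% (72.6 to 80.1) in WT control, 61.0% (57.0 to 64.8) in cKO control, 47.0% (42.7 to 51.3) in WT IR and 43.3% (39.9 to 46.7) in cKO IR. There the difference of cKO from WT was -15.5 points (-20.7 to -10.1) in control tumors, and in irradiated tumors it was -3.70 points (-9.04 to 1.64), an interval that holds 0. Barcodes with C1q but under 1% class II numbered 120 and 243 in WT and cKO control and 288 and 484 in WT and cKO IR.

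**Figure D1:**
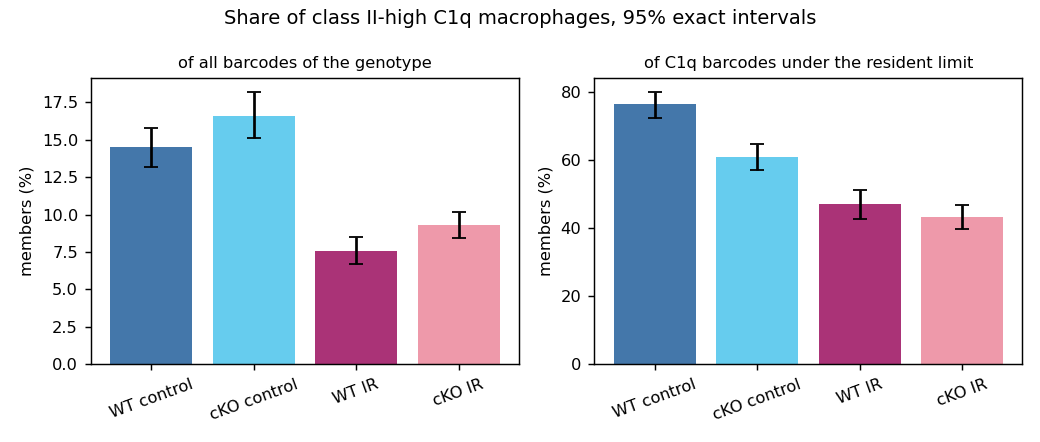
Share of members in the 4 groups (bars, % of barcodes) with exact 95% intervals, among all barcodes of the genotype (left) and among C1q barcodes under the resident limit (right). On the left both IR groups lie below 10.2% and both control groups above 13.2%, and on the right the shares run from 76.5% in WT control to 43.3% in cKO IR.

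The gene comparison of irradiated with control tumors in WT counted 5592 genes, of which 2.29% were higher and 1.61% lower past the limit. In cKO it counted 6303 genes, of which 4.20% were higher and 3.93% lower. The IR members of both genotypes held more transcripts of interferon-induced genes and fewer of proliferation genes. In the type I interferon list of 34 genes, 31 of 33 counted genes were higher past the limit in WT and 34 of 34 in cKO, with none lower. The list's median log2 ratio was 1.86 in WT and 2.82 in cKO, beside -0.04 and 0.02 over all counted genes. The neutrophil markers moved with IR too: 3 of 5 counted genes were higher past the limit in each genotype, with medians of 2.38 and 1.91, and S100a9 stood at 1.78, 2.80, 137 and 67.7 CPM. Their part in the IR results was not tested.

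Rsad2, encoding the antiviral enzyme viperin, showed this pattern in sum and by cell. It stood at 90.8 CPM (81.6 to 101) in WT control, 68.9 (61.6 to 76.9) in cKO control, 689.7 (657 to 724) in WT IR and 786 (757 to 816) in cKO IR. Both IR groups lay far above both control groups, by log2 ratios of 2.92 (2.76 to 3.09) for WT and 3.51 (3.34 to 3.68) for cKO. A UMI of Rsad2 was found in 19.4% and 13.7% of control and 56.5% and 57.2% of IR members (WT and cKO). The IR members were still uneven, since the tenth of cells with the most Rsad2 held 67.6% of its UMIs in WT and 68.4% in cKO.

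Isg15, a ubiquitin-like protein that is attached to other proteins after interferon, stood at 487, 347, 1947 and 2066 CPM in WT control, cKO control, WT IR and cKO IR. The interval of its log2 ratio was 1.92 to 2.08 for WT and 2.50 to 2.65 for cKO. Slfn4, a Schlafen family gene, showed the highest ratio by the naming rule in both genotypes, from 9.89 to 172 CPM in WT and from 2.15 to 148 in cKO, at log2 ratios of 4.08 (3.64 to 4.63) and 5.94 (5.21 to 7.17). Irf7, the transcription factor that amplifies type I interferon, stood at 129.6, 61.6, 622 and 546. Ifit1, Ifit2, Ifit3, Oasl1, Usp18, Ifi44, Ifi213 and Isg20 completed the 10 highest of WT together with Rsad2 and Slfn4, at log2 ratios of 2.28 to 3.25. In cKO, Isg20, Ifit3, Ifi206, Oas2, Ifi208, Ifit1, Oasl1 and Ifit2 joined Slfn4 and Rsad2, with Isg20 at 4.13 (3.64 to 4.76).

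The interferon-gamma list moved less and not as one. Of 23 counted genes, 3 were higher and 1 lower past the limit in WT, and 9 higher and 1 lower in cKO, with medians of 0.41 and 0.79. The 3 higher in WT were the GTPases Irgm2 and Iigp1 and the nitric oxide synthase Nos2, and the gene lower in both was Cxcl9. In cKO the higher ones included Gbp4, Gbp6, Igtp, Irgm1, Irgm2, Socs1, Nos2 and the receptor Slamf7. Nos2 stood at 158, 116, 344 and 428, and the 2 IR groups exceeded the 2 control groups.

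Cxcl9 went the other way. Its level was 1397 CPM (1361 to 1435) in WT control, 948 (920.2 to 976) in cKO control, 472 (445 to 501) in WT IR and 458 (436 to 482) in cKO IR. On the log2 scale WT differed by -1.56 (-1.66 to -1.47) after IR and cKO by -1.05 (-1.13 to -0.96), and the cKO value no longer passed the limit as a mean of per-cell levels, at -0.84. A Cxcl9 UMI was found in 60.9%, 52.6%, 42.4% and 37.4% of members. With each cell thinned to 4000 UMIs, which left out 21 to 40 members a group, these shares were 56.4%, 46.4%, 37.6% and 31.0%. In barcodes with T or NK cell genes, which should lack Cxcl9, the share was 1.32% in the control and 2.40% in the IR library at median depths of 2936 and 2397 UMIs. In neutrophil barcodes it was 3.03% of 33 control and 7.92% of 265 IR barcodes, at median depths of 2288 and 2091 UMIs. The summed Cxcl9 level of the neutrophil barcodes was 456 CPM in the control and 147 in the IR library. All of the control level lay in that 3.03% of 33 barcodes, too few to show a direction. In the T or NK barcodes the level was 3.05 and 7.49. The part of Cxcl9 outside macrophages in the member result was not tested.

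Cxcl10, the neighbouring chemokine gene with the same receptor, was higher after IR, at 611, 767, 1139 and 1124 CPM. The log2 ratios, 0.90 (0.82 to 0.98) for WT and 0.55 (0.49 to 0.62) for cKO, were under the limit. The T or NK barcodes held Cxcl10 at 46.8 CPM in the control and 438 in the IR library, and the neutrophil barcodes at 223 and 2940.1, so its level outside macrophages was also higher in the IR library, and the part of that in the result was not tested. Over all members, Cxcl9 and Cxcl10 thus differed in opposite directions between control and IR. This did not hold in WT members with 4% or more of their UMIs in the 4 class II genes. There Cxcl10 was also lower after IR, at 609.8 CPM (571 to 650.4) in control and 427 (368 to 493) in IR. Over single thinned members the Spearman correlation of the 2 genes was 0.25, 0.21, 0.05 and 0.15 in the 4 groups.

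**Figure D2:**
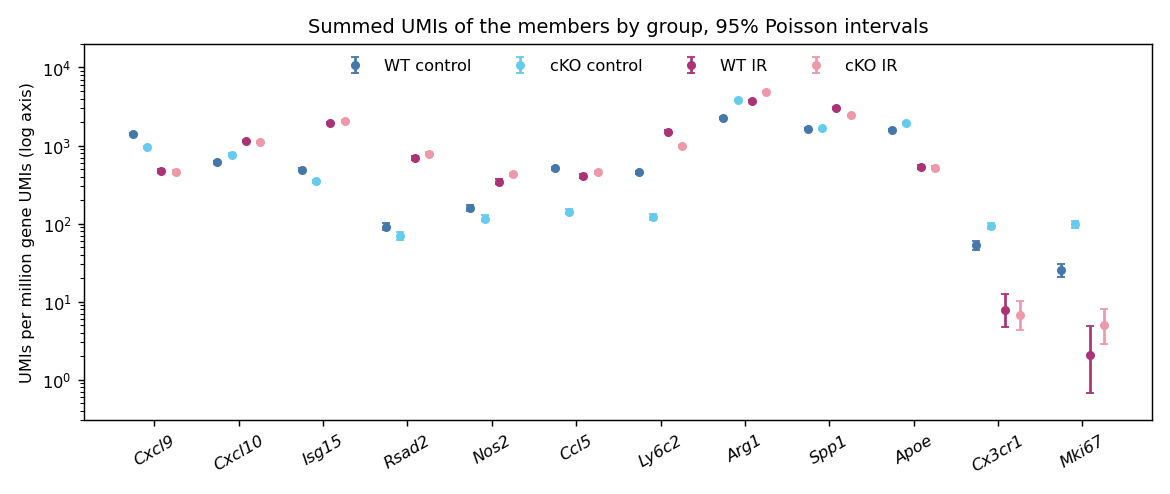
Levels of 12 genes in the members of the 4 groups, as CPM (log axis), with 95% Poisson intervals. Both IR groups lie above both control groups for Cxcl10, Isg15, Rsad2, Nos2, Ly6c2 and Spp1 and below them for Cxcl9, Apoe, Cx3cr1 and Mki67.

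Some class I genes were higher after IR, and class II genes outside the rule had medians slightly below 0 within the members in the main setting. The rule set a class II minimum of 1% in every group, so this cannot show whether class II was unchanged after IR. Members made up 76.5% (WT) and 61.0% (cKO) of the C1q barcodes under the resident limit in control, and 47.0% and 43.3% after IR. In the class I list, all 18 genes were counted and 1 (WT) and 5 (cKO) were higher past the limit, with medians of 0.34 and 0.69. B2m, the shared light chain of class I, stood at 3880.1, 2952, 5328 and 5108 CPM, and H2-T22, a nonclassical class I gene, at 125, 69.4, 284 and 248. In the class II list without the rule's genes, the medians were -0.31 in WT and -0.26 in cKO over 9 counted genes. The cKO median was 0.01 with a gene minimum of 20 UMIs. None of the 9 was past the limit in WT, and 1 was in each direction in cKO. Over all counted genes, 2.29% were higher and 1.61% lower in WT, and 4.20% and 3.93% in cKO. With so few list genes, none past the limit in WT is near that share and does not show stability. The peptide loaders did not pass the limit, with H2-DMa at 922, 766, 683 and 595 CPM and H2-DMb1 at 794, 753, 638 and 622. Ciita, the coactivator of class II, stood at 58.6 (51.3 to 66.7), 44.4 (38.5 to 50.9), 45.4 (37.3 to 54.8) and 50.4 (43.1 to 58.5). Only the intervals of WT control and cKO control do not overlap. The protease Ctss, which trims the invariant chain, stood at 3164, 2771, 4052 and 3737, above control in both IR groups. March1, which marks class II for removal from the surface, was past the limit in cKO at a log2 ratio of 1.73 (1.42 to 2.07), and Cd83, which opposes it, at -1.08 (-1.21 to -0.96).

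Complement genes outside the rule gave 1 gene higher past the limit in each genotype, of 9 counted in WT and 10 in cKO, and 1 lower in cKO. The higher one was Cfb, factor B of the alternative pathway, at 228, 135, 507 and 432 CPM. C3 stood at 224, 148, 186 and 227, with no common direction. In the core macrophage list the medians were 0.14 and 0.23. Fcgr1, the high-affinity IgG receptor, was higher past the limit in cKO at 1.39 and just reached it in WT, with an interval of 0.89 to 1.11. Pla2g7, Mertk and Fcgr4 were also higher past the limit in cKO.

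Cx3cr1, the fractalkine receptor of macrophages, was lower in both genotypes. It had 209 UMIs in WT control, 434 in cKO control, 19 in WT IR and 23 in cKO IR members, and scaled to the groups' total UMIs the IR groups differed from control by -2.70 (-3.51 to -2.06) and -3.75 (-4.47 to -3.19) on the log2 scale. Apoe, the lipid carrier, stood at 1579.8, 1948, 536 and 521, at -1.56 and -1.90. The lipid-associated list as a whole did not share this: its median was 0.42 and 0.53, and Cd36, a scavenger receptor, was higher at 1.57 and 1.64. Lpl, the lipoprotein lipase, was the other gene lower past the limit, in cKO alone, from 52.6 to 21.4 CPM. The other genes lowest in WT were Tmem176b at -3.16 (-4.17 to -2.43) and Tmem176a, Cxcl14, Chchd10, Ccdc34, Stard4, AI506816, Fdps and Idi1, at -2.39 to -1.60. Fdps and Idi1 are enzymes of cholesterol synthesis, and Fdps stood at 196, 254, 64.1 and 73.5 CPM in the 4 groups.

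In cKO the lowest ratios were those of dividing cells. Of 19 counted proliferation genes, 17 were lower past the limit in cKO, with a median of -3.68, and in WT 4 of 8, with a median of -1.05. The size of the WT median depended on the setting: among others it was -0.37 without the 6% highest Scrublet doublet scores, -0.37 with a class II limit of 2% and -1.54 with UMIs summed over both matrices, and it was lower still with a gene minimum of 20 UMIs. Mki67 was at 25.1 CPM (20.4 to 30.6) in WT control, 97.4 (88.6 to 107) in cKO control, 2.08 (0.676 to 4.86) in WT IR and 4.98 (2.90 to 7.97) in cKO IR. A Mki67 UMI was found in 9.72% and 25.5% of control and 1.57% and 2.98% of IR members. The 10 lowest by the naming rule were Hist1h1b, Pclaf, Birc5, Ccna2, Ccnb2, Fads2, Hist1h2ap, Spc24, Tk1 and Top2a, at -6.70 to -4.30. Apart from Fads2, a fatty acid desaturase, they act in DNA replication or mitosis, and Ccna2 rested on a single UMI in cKO IR, at -5.43 (-11.62 to -3.79).

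Ly6c2 was higher after IR, and the suppressive genes differed less. Ly6c2, one of the genes of the Ly6C protein used in the sort, stood at 456, 122, 1508 and 992 CPM, by 1.73 (1.64 to 1.81) and 3.02 (2.89 to 3.15) on the log2 scale. Because Ly6C was sorted on, its level can follow the gate. Arg1, the arginine-degrading enzyme of suppressive myeloid cells, stood at 2241, 3806, 3734 and 4862, at 0.74 and 0.35. Spp1, encoding osteopontin, stood at 1621, 1663, 3026 and 2430.2. Cd274, encoding PD-L1, stood at 193, 131, 325 and 341, past the limit in cKO at 1.37. In the suppressive and angiogenic list, none of 16 counted genes passed the limit in WT, and 1 was higher (Mmp19) and 1 lower (Chil3) in cKO.

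**Figure D3:**
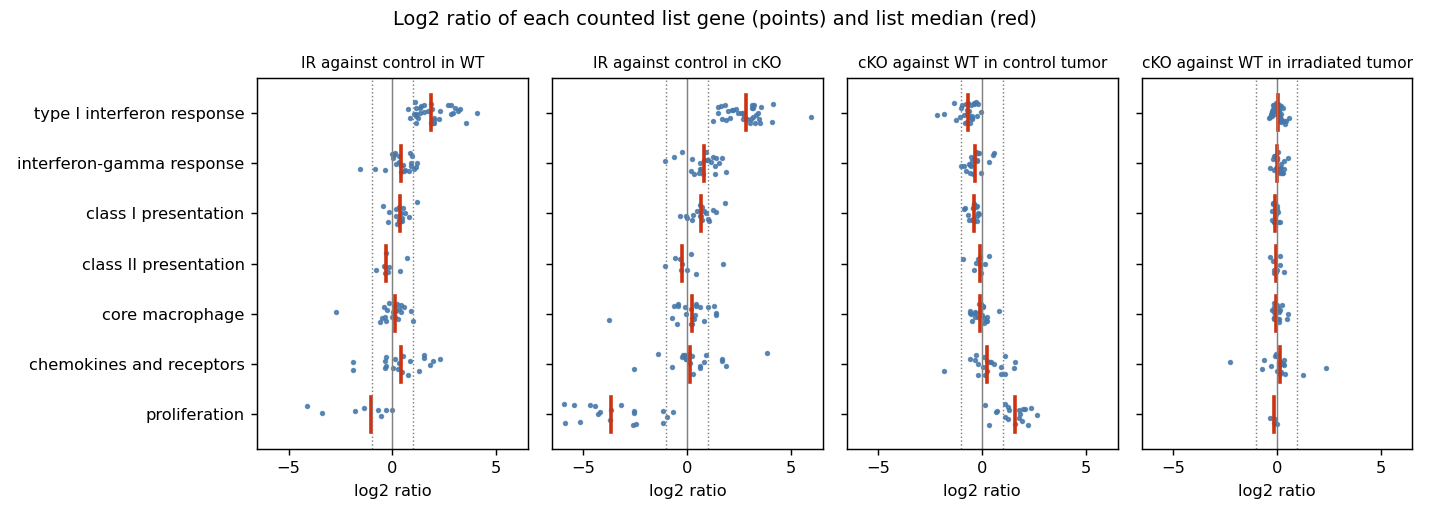
Log2 ratio of each counted gene (points) and the median (red lines) of 7 gene lists in the 4 comparisons, without the genes of the rule; dotted lines mark a log2 ratio of 1 in size. The type I interferon median is 1.86 and 2.82 for IR against control and 0.08 for cKO against WT in irradiated tumors.

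The genotypes differed more in control than in irradiated tumors by count. In control tumors 6468 genes were counted, 1.18% higher and 0.758% lower in cKO past the limit. In irradiated tumors 5317 were counted, 0.207% higher and 0.169% lower. That makes 125 genes against 20, and the difference between these counts was not tested.

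Control cKO members held more transcripts of proliferation genes and of the cytokines Il6, Tnf and Il1a, and fewer of Plac8, Ly6c2 and some type I interferon genes. In the monocyte marker list, 3 of 10 counted genes were lower past the limit and 1 was higher, with a median of -0.49, while the sum, which a few abundant genes dominate, was 3985 CPM in WT control and 4003 in cKO control. Of 19 counted proliferation genes, 15 were higher past the limit, with a median log2 ratio of 1.61 beside -0.02 over all counted genes. The 10 highest by the naming rule were Hist1h1b at 2.39 (2.03 to 2.82), Cdca3, Ccnb2, Asf1b, Birc5, Ckap2l, Cdk1, Mki67, Il6 and Hist1h2ap, the last at 1.87. Il6 was the single cytokine among them, at 19.0 CPM in WT control, 73.2 in cKO control, 24.6 in WT IR and 24.3 in cKO IR. Without the resident limit the Mki67 ratio was 1.15 in place of 1.95. Of the NF-kB list, 3 of 23 genes were higher past the limit, Il6, Tnf and Il1a, with Tnf at 198, 507, 172 and 185. In the chemokine list 4 genes were higher, and among them Ccl4 stood at 378, 1097, 1308 and 1305 and Ccl2 at 605, 1311, 1479 and 1599.9 CPM, so that WT control was the lowest group for both.

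The 10 lowest genes of cKO control were Plac8, Isg20, Slc4a11, Ly6c2, Ms4a4c, Ccl5, Rhov, Vcan, Ly6i and Adora2a. Plac8, abundant in monocytes, stood at 967 CPM in WT control and 207 in cKO control, at -2.22 (-2.33 to -2.12), and at 2400.1 and 2004 in WT and cKO IR. Ly6c2 was at -1.90 (-2.04 to -1.76). Ccl5, a T cell chemokine, stood at 509.9, 142, 405 and 452, at -1.84 (-1.97 to -1.71), and cKO control was the group apart from the other 3. In the type I interferon list 5 of 28 counted genes were lower past the limit and none higher, with a median of -0.69, and in the interferon-gamma list 1 of 22 was lower, Gbp8, with a median of -0.32. Cxcl9 was lower in cKO control, at -0.56 (-0.62 to -0.50), under the limit.

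Among irradiated tumors few genes separated the genotypes apart from Lyz2, Lyz1 and Ythdf2. None of 34 type I interferon, 23 interferon-gamma, 18 class I, 9 class II and 21 core macrophage genes counted there passed the limit. Over all 5317 counted genes, 0.207% were higher and 0.169% lower past the limit. Passing none is thus near the share over all genes and is no trait of these lists. The list medians were 0.08, 0.01, -0.08, -0.04 and -0.01, beside 0.02 over all counted genes. Other lists did hold genes past the limit. Of the resident-like list 2 of 4 counted genes were higher (median 0.60), and of the neutrophil markers 2 of 5 were lower (median -0.82). The chemokine list had 2 higher and 1 lower of 20. The dendritic list had 1 of 3 higher, the monocyte markers 1 of 10 higher and the lipid-associated list 1 of 17 lower. By the naming rule 4 genes were higher in cKO, Hp at 1.24 (0.62 to 1.96), F7 at 1.18 (0.77 to 1.62), Rnf103 at 1.12 (0.52 to 1.80) and Mrc1 at 1.01 (0.75 to 1.28), and Zbtb18 was lower at -1.05 (-1.56 to -0.57). None of these 5 stayed past the limit under all 12 alternatives. Mrc1, the mannose receptor, stood at 129 and 229 CPM in WT and cKO control and at 67.9 and 137 in WT and cKO IR, higher in cKO in both tumors. Cxcl9 was at -0.04 (-0.15 to 0.07) and Cxcl10 at -0.02 (-0.09 to 0.05).

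A few genes were carried by a small number of cells and fell outside the naming rule. Ccl17, a chemokine for CCR4+ T cells, stood at 167, 176, 808 and 171 CPM, a log2 ratio of -2.24 for cKO against WT in irradiated tumors. It was found in 7.93% to 13.3% of members, and at least 99.3% of its UMIs lay in the tenth of cells with the most. The highest single cell held 457 of the 1941 UMIs of WT IR. It was named after its values were seen.

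Members varied widely in class II level. Those with 4% or more of their UMIs in the 4 class II genes made up 41.7% of WT control (163 cells), 26.8% of cKO control (102), 20.0% of WT IR (51) and 11.9% of cKO IR members (44). Class II loaders followed the class II level within every group. H2-DMb1 went from 354 to 469.6 CPM at 1% to 2% up to 1019.6 to 1189 at 4% or more, and its log2 ratio between these levels was 1.17 to 1.74. Cxcl9 was higher at 4% or more than at 1% to 2% in each group, at 1711 against 1351 in WT control, 1426 against 669 in cKO control, 637 against 346 in WT IR and 789 against 358 in cKO IR. At each class II level both IR groups stayed below both control groups for Cxcl9. Cxcl10 was higher in IR than in control of the same genotype at each level except 4% or more in WT. Since class II chose the levels, these values are a description.

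Arg1 and Spp1 ran against the class II level. Arg1 stood at 3139.8 against 1028 CPM in WT control (1% to 2% against 4% or more), 5508 against 1755 in cKO control, 5409 against 1566 in WT IR and 5948 against 1485 in cKO IR. Spp1 stood at 2391 against 467, 2702 against 726, 3791 against 1446 and 2980.0 against 976 in the same order. Cd274 did not share this in control tumors, at 174 against 211 in WT and 141 against 131 in cKO. Of 1870 genes counted in all 4 groups, 5 were higher past the limit at 4% or more in every group and 9 were lower. The higher ones were Ccl17, the decoy receptor Il1r2, H2-DMb1, Gpr171 and Grasp. Those lower were Pf4, Arg1, Cxcl3, Spp1, Fn1, Ccl2, Pdpn, Ccl6 and Timp1, chemokines and matrix genes among them. The dendritic list summed to 129, 239.5, 89.4 and 168 CPM at 1% to 2% and to 489, 430.2, 481 and 894 at 4% or more, where Flt3 and Zbtb46 had no UMI in any group. Ccr7, the receptor of migrating dendritic cells, went from 0 CPM in 3 groups and 0.619 in cKO IR at 1% to 2% up to 25.7, 4.21, 56.5 and 223 at 4% or more, and Mgl2, a lectin, from 61.3, 201, 59.6 and 136 up to 306, 338, 217 and 374. Ccl17, outside that list, went from 2.23, 6.55, 39.4 and 119 CPM up to 328, 316, 1939 and 876. Itgax (CD11c) went from 95.9, 67.0, 138 and 124 up to 164, 189, 215 and 261. Adgre1 went from 81.4, 66.3, 71.3 and 66.8 down to 56.8, 61.5, 27.1 and 15.4, the last on 6 UMIs. The core macrophage list summed to 15784, 15382, 20808 and 19891 at 1% to 2% and to 17376, 17825, 18991 and 18908 at 4% or more. The part of these genes in the values by class II level was not tested.

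**Figure D4:**
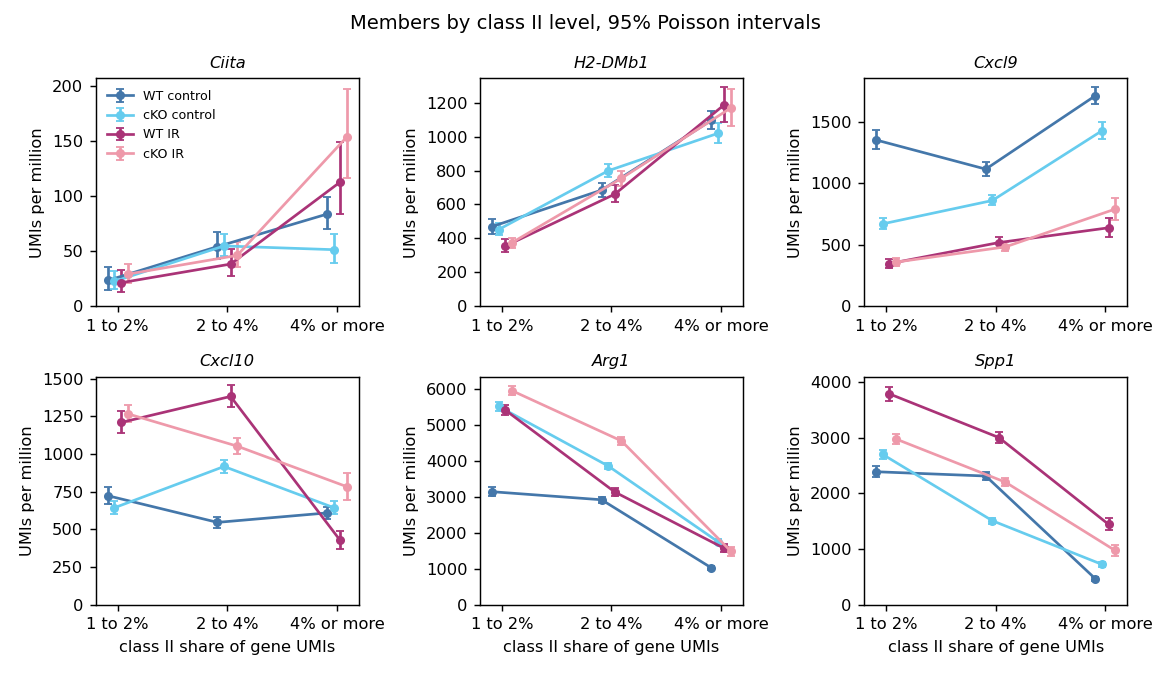
Levels of 6 genes (CPM, 95% Poisson intervals) in members with 1 to 2%, 2 to 4% and 4% or more of their UMIs in the 4 class II genes, by group. H2-DMb1 is higher and Arg1 and Spp1 are lower at 4% or more in all 4 groups, and Cxcl9 is lower in both IR groups at every level.

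The genes whose level over single members was most like that of Cxcl9 were found by rank. Spearman's rho was computed in each group over members thinned to 4000 UMIs, which share a library, and averaged over the 4 groups for 6484 genes. The 10 highest were AW112010 (0.39), Gbp2 (0.37), Serpina3g (0.33), Samhd1 (0.28), Ly6a (0.27), Cfb (0.23), C3 (0.23), Fgl2 (0.23), Psme2 (0.22) and Cd40 (0.22), beside a median of 0.00 over all genes. Gbp2 had rho 0.56 and 0.49 in WT and cKO control and 0.26 and 0.19 in WT and cKO IR. H2-Ab1 had a mean rho of 0.13 and C1qa of 0.06. At the other end stood Spp1 and Arg1, both at -0.17.

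The members were set beside the other C1q barcodes of the same tumors, with no test, since all of these genes were measured in the cells that the rule sorted. One kind had 5 or more UMIs of the resident genes (564 barcodes in both tumors), the other had under 5 of them and under 1% class II (1225 barcodes). Cxcl9 was highest in members in each group. In WT control it was at 1397 CPM in members, 761 in the resident kind and 901 in the class II-low kind, and in cKO IR at 458, 228 and 253. Ciita was at 44.4 to 58.6 in members, 10.4 to 23.2 in the resident kind and 3.31 to 9.14 in the class II-low kind. Itgax, encoding CD11c, was at 123 to 169.5, 20.5 to 57.9 and 32.0 to 75.8.

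Against the class II-low kind, 11 of 4512 genes counted in all 4 groups were higher past the limit in every group and 16 were lower. The higher ones were Ccl17, Klrb1b, Ciita, H2-DMb1, H2-DMb2, Dcstamp, Il1r2, Itgax, H2-DMa, Rnase6 and P2ry14. Among the lower were the platelet chemokine Pf4, the clotting factor F13a1, Cd93, the monocyte-drawing chemokines Ccl2, Ccl7 and Ccl12, Mrc1 and the transcription factor Maf. Pf4 was at 217 to 510.2 CPM in members, 2039.5 to 3279 in the class II-low kind and 2648 to 11814 in the resident kind. Mrc1 was at 67.9 to 229, 214 to 582 and 876 to 1447. Apoe was at 521 to 1948 in members and 5150.2 to 6997 in the resident kind. The IR ratio of Cxcl9 was below 0 in all 3 kinds, in WT at -1.56, -1.41 and -1.58 and in cKO at -1.05, -1.79 and -0.81 (members, resident and class II-low). That of Cxcl10 was 0.90, 0.24 and 0.82 in WT and 0.55, -1.16 and 0.76 in cKO, so it was below 0 in the cKO resident kind.

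**Figure D5:**
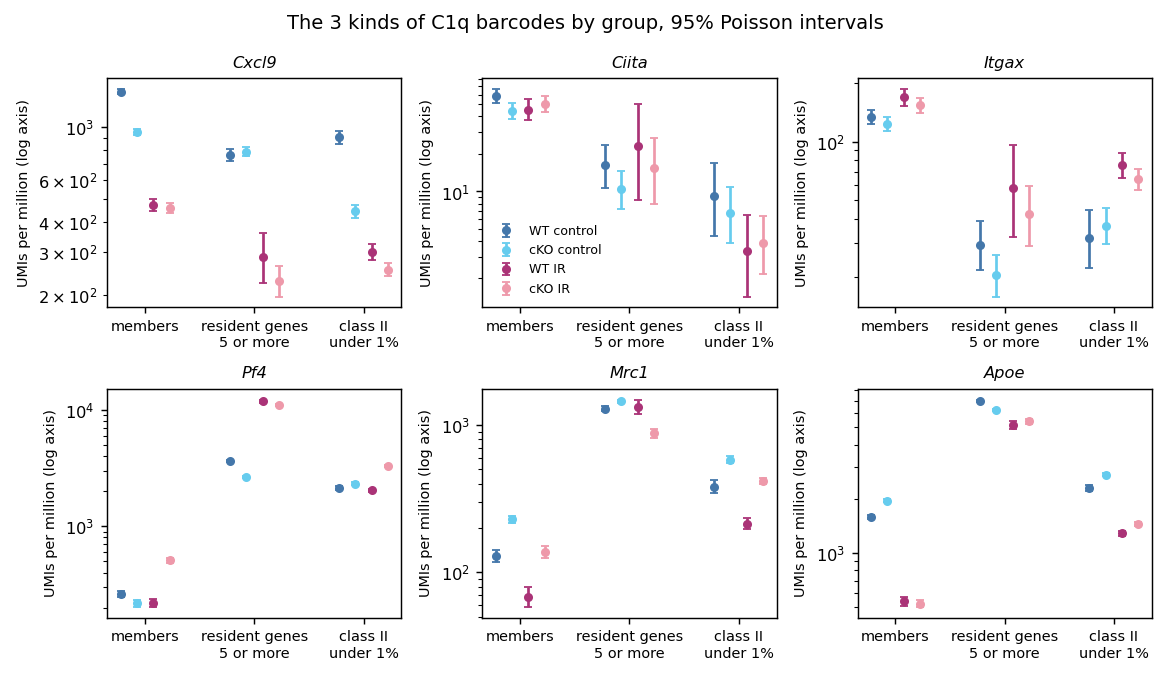
Levels of 6 genes (CPM, log axes, 95% Poisson intervals) in the 3 kinds of C1q barcodes, by group. Cxcl9, Ciita and Itgax are highest in members in each group, and Pf4, Mrc1 and Apoe are lowest there.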

How the data were processed

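Per the submitters' processing notes the reads were handled with Cell Ranger 6.0.1 on mm10 and with Seurat 4.0.6, while the matrix headers name Cell Ranger 4. The deposited matrices hold the authors' UMI counts per gene or hashtag and barcode, before normalization. Barcodes were filtered, assigned to a genotype by hashtag and summed per group, in Python 3.11.15. Each group is 1 pool, so no test was run. Intervals are exact (Poisson for levels, conditional binomial for ratios, Clopper-Pearson for shares) or Newcombe's (differences of shares), at 95%, and cover counting error only. Group totals were 2401157 to 4642259 gene UMIs.

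The named genes were the 10 highest and 10 lowest ratios past the limit among genes with UMIs in at least 10% of the members of the higher group and no cell with over 10% of them. Mitochondrial and predicted genes, genes of the rule, Lyz2, Lyz1 and Ythdf2 were left out. Lists of class II, interferon-gamma, complement and macrophage genes and the 10 genes most correlated with Cxcl9 were named as well, and other genes named as examples were chosen after their values were seen. Members and gene lists were chosen with earlier results of these data known. Doublets were treated as an alternative, leaving out the 6% highest Scrublet scores (scanpy 1.11.5), since its own threshold marked 2 control and 0 IR barcodes. TMM factors came from edgeR 4.0.16 in R 4.3.3. The scripts were tested on simulated counts. Promoter windows are RefSeq's. Values of some list genes are not reported here.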

Additional observations from a re-analysis of the deposited data

Results flagged for a closer look

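Ccl5 differed in opposite directions between the genotypes. Its log2 ratio of IR against control was -0.33 (-0.44 to -0.22) for WT and 1.67 (1.54 to 1.80) for cKO members, each from 1 pool a group, and the difference between the genotypes was not tested.

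Barcodes under 20 hashtag UMIs in a tumor matrix entered no main comparison from that matrix. Of these, 510 of the control and 662 of the IR tumor matrix met the gene limits. All 1172 of them carried 20 or more hashtag UMIs in the other tumor matrix, so the hashtag limit did not leave them out there. How many of them were members there is not given here. Summing each barcode's gene UMIs over both matrices gave 280 (IR in WT), 659 (IR in cKO), 186 (cKO in control) and 28 (cKO in irradiated tumors) genes past the limit. In blood, 4 control and 7 IR barcodes met the gene limits.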

How the results depend on the processing

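Of 36 share differences under the alternatives, 29 stayed inside the interval of the main setting. For IR against control the share differed by -14.7 points in WT with a 4-fold hashtag difference both ways and by -9.37 in cKO without the resident limit. For cKO against WT in control tumors the direction turned to -6.31 with the 4-fold hashtag difference both ways and to -0.669 without members whose Lyz2 went against their hashtag, a setting chosen after seeing the data, and it was 0.147 with a class II limit of 2%. In irradiated tumors it was 0.203 with that class II limit and 0.317 with the Lyz2 setting. With a gene minimum of 20 UMIs, 723 (IR in WT), 1221 (IR in cKO), 533 (cKO in control) and 187 (cKO in irradiated tumors) genes were past the limit, in place of 218, 513, 125 and 20, and the share of higher genes went from 58.7% to 36.2% and from 51.7% to 40.3% in the IR comparisons. The last count was 13 with a class II limit of 2%. With mean per-cell CPM the share of higher genes in cKO against WT in irradiated tumors was 66.7% in place of 55.0%. At the gene minimum of 20 UMIs the monocyte marker median turned to -0.06 (IR in WT) and the neutrophil marker median to 0.02 (cKO in irradiated tumors). The remaining 43 of 48 gene counts stayed within 1.5 times their value. Of 1036 list medians 55 were classed as moved and 2 as reversed, and of 1160 single-gene values 145 were classed as moved. Of the 20 named genes of a comparison, 16 (IR in WT), 13 (IR in cKO) and 15 (cKO in control) stayed counted and past the limit under all 12 alternatives. The cause was not tested for any of these. No paired analysis was possible because each group was 1 pool.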
